A study of Mus musculus with 4 samples.

Results

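The genes described here are those of the mitochondrial ribosome, taken as every gene whose symbol begins with Mrpl or Mrps followed by a digit. There were 77 such genes among the 27542 rows of the deposited table, and all 77 were tested by the authors and stood above 5 FPKM in both conditions. The cells were TBV2, a mouse embryonic stem cell line, in which T-UCstem1 was knocked down (KD). T-UCstem1 is a long noncoding transcript with an ultraconserved element. The KD was 3 clones, and the authors combined them into 1 value per gene. The other condition was 1 library of TBV2 cells with a non-targeting control (NT). Both were kept in serum and LIF, on feeder cells at high density by the series description. The level of T-UCstem1 itself was not analysed here.

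The mitochondrial ribosome is built from RNAs made inside the organelle and from proteins that are encoded in the nucleus, made in the cytosol and imported. It translates the few proteins of the respiratory chain that mitochondrial DNA encodes. Some of its proteins descend from those of the bacterial ribosome, and others were added in the mitochondrial lineage. The large subunit joins amino acids and feeds the chain towards the inner membrane, and the small subunit reads the messenger RNA.

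Of the 77 members, 50 belong to the large subunit and 26 to the small subunit. Mrps30 and Mrps18a, named after the small subunit, are placed in the large one, where their proteins are found. Mrps36 carries a ribosomal name, but its product is known as a part of the 2-oxoglutarate dehydrogenase complex. It is kept among the 77 and left out of the subunit groups, and it was at 27.1 FPKM in KD and 27.5 FPKM in NT.

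None of the 77 genes was called different between KD and NT. In the authors' deposited table, the Cuffdiff test marked 0 members at its q threshold, beside 1.15% of the 15477 rows tested. The share of all rows marked higher in the KD was 0.963%, and the share marked lower was 0.187%. A share of 0 among 77 genes is close to that background. At an unadjusted p under 0.05, 0 members passed, beside 8.88% of all rows tested, and no other tool was run. The lowest p of a member in the authors' deposited table was 0.0501, that of Mrpl42. With 1 control library and pooled clones, no spread between cultures could be measured here, and no value below has an SD.

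FPKM counts sequenced fragments per kilobase of a transcript, scaled for library size, and is a level per length, so genes can be compared with each other. The members had a median of 38.3 FPKM in KD and 35.0 FPKM in NT, with quartiles of 28.4 and 52.0 FPKM in KD and of 26.4 and 49.9 FPKM in NT. Summed over the 77 genes, the level was 3480 FPKM in KD and 3289 FPKM in NT, 5.79% higher in KD. The median size of the difference, in either direction, was 8.61% of the NT level. For 42 members the difference was within 10%, and for 67 within 25%.

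The members ranked alike in both conditions. Mrpl52, a large-subunit protein with no bacterial counterpart, stood at 164 FPKM in KD and 153 FPKM in NT. At the other end Mrpl41, another protein of that class, was at 6.47 FPKM in KD and 6.24 FPKM in NT. Its row overlaps one that carries Dph7 and Zmynd19. In NT Mrpl42, described further on, was higher still at 164 FPKM. The highest member exceeded Mrpl41 25.4-fold in KD (Mrpl52) and 26.4-fold in NT (Mrpl42). Across the 77 genes the log2(FPKM + 1) values of KD and NT had a Pearson r of 0.975 and a Spearman rho of 0.957. This describes genes that share the same libraries, and genes are not independent replicates. Among the large-subunit genes the median level was 44.4 FPKM in KD and 41.0 FPKM in NT. Among the small-subunit genes it was 32.8 FPKM in KD and 31.7 FPKM in NT.

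**Figure D1:**
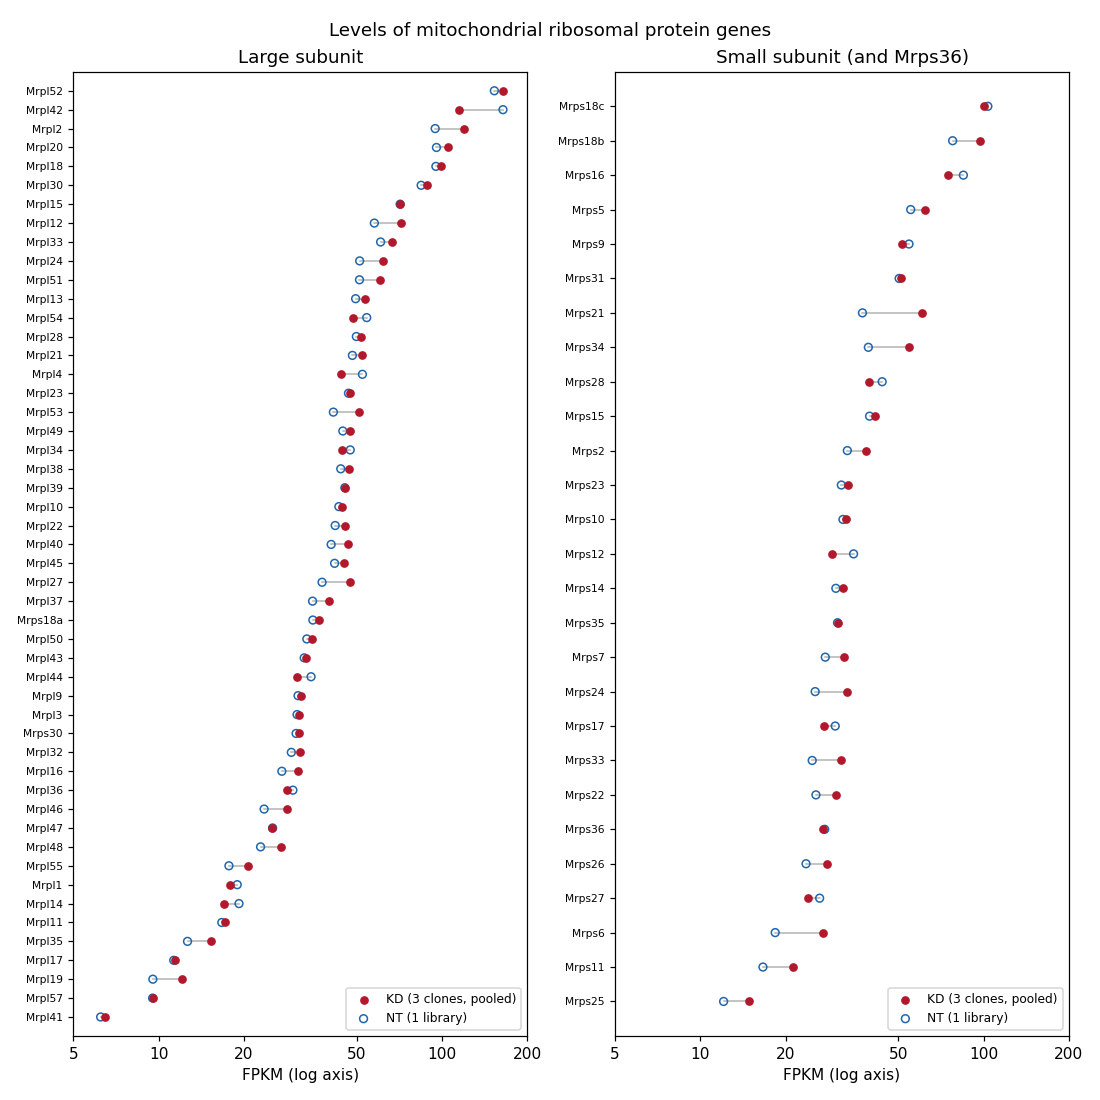
FPKM of each member on a log axis, KD filled and NT open, with genes ordered by mean level within each subunit. Most pairs of points nearly touch, and Mrpl42 and Mrps21 are among the pairs set widest apart.

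Fold changes are given as log2((KD FPKM + 1)/(NT FPKM + 1)), so a positive value is higher in KD. The members lay slightly above 0, with a median of 0.077 and quartiles of 0.0041 and 0.22. The 12330 named genes that reached 1 FPKM in either condition had a median of 0.022 and quartiles of -0.16 and 0.22. Of the members 58 lay above 0 and 19 below, a share of 75.3% above 0, beside 53.1% of the named genes. The members were packed more closely than genes in general, with an interquartile range of 0.22 against 0.38. That range was 0.33 over the 7577 named genes whose mean level lay between the lowest and the highest member. It was also 0.22 over the 85 cytosolic ribosomal protein genes, described further on. Factors that assemble the mitochondrial ribosome had quartiles of -0.10 and 0.058. Close packing was thus not particular to the members.

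Only 3 members passed 0.5 on the log2 scale in either direction. Mrps21 and Mrps6 were past 0.5 upwards, 2.60% of the members beside 9.72% of named genes. Mrpl42 was past -0.5, 1.30% of the members beside 5.34% of named genes. Differences of these shares and ranges were not tested, since each gene has 1 value per condition.

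The highest fold was that of Mrps21, the counterpart of bacterial S21 in the small subunit. Its row (mm9, chr3:95666574-95674542) was at 60.8 FPKM in KD and 37.3 FPKM in NT. The log2 fold was 0.69, and the authors' deposited table gave p = 0.123 and q = 0.805. Mrps6, the counterpart of bacterial S6, followed at 27.2 FPKM in KD and 18.4 FPKM in NT, a log2 fold of 0.54. Its row (mm9, chr16:92058566-92112472) also carries Slc5a3, an inositol transporter gene, and the reads of the pair cannot be told apart. Mrps34, a small-subunit protein with no bacterial counterpart, was at 54.5 FPKM in KD and 39.2 FPKM in NT, in a row shared with the nucleoside diphosphate kinase gene Nme3.

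The lowest fold was that of Mrpl42, a large-subunit protein with no bacterial counterpart (mm9, chr10:94943428-94964605). It was at 115 FPKM in KD and 164 FPKM in NT, so that it was the most abundant member in NT and the third in KD. The log2 fold was -0.51, and the authors' deposited table gave q = 0.563. Mrps12, the counterpart of the bacterial decoding protein S12, was at 29.1 FPKM in KD and 34.7 FPKM in NT, a log2 fold of -0.25. Mrpl4 was at 44.1 FPKM in KD and 52.4 FPKM in NT, with a log2 fold of -0.24. The other members with negative folds lay between -0.17 and -0.00027.

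Promoter windows of 4 members are shown: those with the highest and the lowest fold (Mrps21 and Mrpl42), and Mrps11 and Mrps12, which each start back to back with another gene of mitochondrial translation. Each window runs from 250 bases before to 50 bases after the start of the gene, on the gene's strand, from RefSeq on GRCm38.p6. Capitals mark letters of motifs linked to genes of mitochondrial proteins, on either strand. These are GCGCA and GCGC with 1 free base between them, of NRF1, CCGGAAG of ETS factors such as GABP, and AAGATGGC of YY1. The windows are chr3:95871465-95871764 on the minus strand for Mrps21, chr10:95501900-95502199 on the minus strand for Mrpl42, chr7:78782881-78783180 on the plus strand for Mrps11 and chr7:28741772-28742071 on the minus strand for Mrps12.
Mrps21: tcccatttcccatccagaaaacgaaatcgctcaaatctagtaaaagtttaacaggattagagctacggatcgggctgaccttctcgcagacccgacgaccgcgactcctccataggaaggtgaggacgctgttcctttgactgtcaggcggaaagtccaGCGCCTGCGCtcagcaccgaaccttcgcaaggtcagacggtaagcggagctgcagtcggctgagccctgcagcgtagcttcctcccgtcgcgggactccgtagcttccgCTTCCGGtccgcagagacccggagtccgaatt
Mrpl42: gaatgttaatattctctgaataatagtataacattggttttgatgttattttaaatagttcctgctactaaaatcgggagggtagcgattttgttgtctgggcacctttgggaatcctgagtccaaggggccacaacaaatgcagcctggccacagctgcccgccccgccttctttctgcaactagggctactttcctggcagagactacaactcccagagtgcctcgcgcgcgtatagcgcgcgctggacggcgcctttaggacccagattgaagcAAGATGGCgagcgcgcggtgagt
Mrps11: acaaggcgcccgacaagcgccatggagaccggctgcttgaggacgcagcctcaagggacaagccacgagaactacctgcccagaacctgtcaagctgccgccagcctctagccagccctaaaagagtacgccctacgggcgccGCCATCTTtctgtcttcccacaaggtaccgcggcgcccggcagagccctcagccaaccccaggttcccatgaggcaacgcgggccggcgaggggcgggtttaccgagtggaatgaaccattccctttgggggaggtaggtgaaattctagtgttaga
Mrps12: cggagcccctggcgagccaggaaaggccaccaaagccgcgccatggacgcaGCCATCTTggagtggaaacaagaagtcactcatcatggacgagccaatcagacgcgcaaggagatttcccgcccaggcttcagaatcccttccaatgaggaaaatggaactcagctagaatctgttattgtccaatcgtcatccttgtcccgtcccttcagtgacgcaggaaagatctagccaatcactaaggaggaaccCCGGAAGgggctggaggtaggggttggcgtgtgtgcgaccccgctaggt

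The Mrps21 window held NRF1 letters that begin 91 bases before the start and ETS letters in the transcribed part. The Mrpl42 window held only YY1 letters, beginning at base 28 of the transcript. In the Mrps11 window YY1 letters began 107 bases before the start. In the Mrps12 window ETS letters lay at the start itself, and YY1 letters began 199 bases before it. Mrpl46 starts 42 bases from Mrps11, and Sars2 starts 147 bases from Mrps12, each on the opposite strand. The YY1 letters of these 2 windows thus lie beyond the neighbour's start, in the neighbour's transcribed part.

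Windows were found for 68 of the 77 members, 74 windows in all. ETS letters stood in 33.8% of these windows, in 17.3% of the 11957 windows of other genes at 1 FPKM and in 8.86% of all 32851 windows in the table. NRF1 letters with 1 free base stood in 17.6% of member windows, 9.84% of windows of other expressed genes and 4.60% of all windows. For the stricter NRF1 letters, with T as the free base and so contained in the looser motif, the shares were 4.05%, 2.08% and 0.971%. YY1 letters stood in 16.2% of member windows, 4.32% of windows of other expressed genes and 2.75% of all windows. The E-box CACGTG, bound by MYC among others, stood in 9.46%, 10.2% and 7.15%. These are matches of letters and not measured binding.

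Folds of members with and without these letters are given as medians, and their differences were not tested. Of the 68 members 42 held NRF1, ETS or YY1 letters, with a median log2 fold of 0.088, against 0.061 for the other members with a window. The medians were 0.10 with and 0.065 without ETS letters. They were 0.037 with and 0.087 without the NRF1 letters with 1 free base, and 0.037 with and 0.078 without the stricter ones, which 3 members held. For YY1 letters they were 0.088 with and 0.071 without, and for the E-box, which 5 members held, 0.14 with and 0.077 without.

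By subunit, the 50 large-subunit genes had a median log2 fold of 0.068 and the 26 small-subunit genes 0.12. Relative to the median of each gene's chromosome, both medians were 0.048. Without rows that share or overlap another, they were 0.040 and 0.057. The large subunit had 39 genes above 0 and the small subunit 19. By ancestry, the 46 genes with a bacterial counterpart had a median of 0.061, and the 30 without one had 0.087. Mrps18a and Mrps18b were counted among the 30, although both are paralogs of bacterial S18. Relative to the chromosome the order turned round, at 0.052 with and 0.042 without a counterpart. The 10 small-subunit genes without a bacterial counterpart had the highest median of the 4 classes, 0.23, with 9 of 10 above 0. The 4 highest of them were Mrps34 in a shared row, Mrps33 and Mrps25 on chromosome 6, and Mrps18b in an overlapping row. Differences between the classes were not tested.

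**Figure D2:**
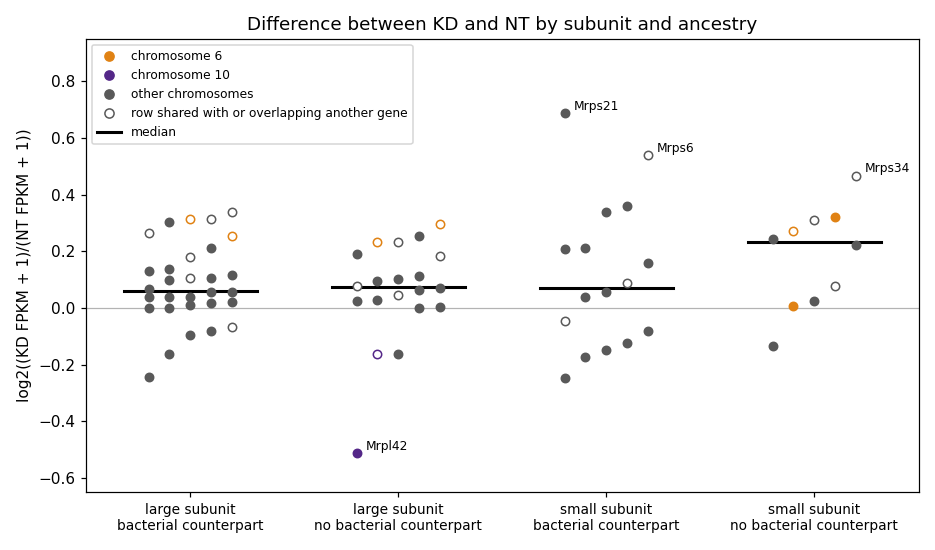
Log2 fold of KD over NT for the 76 subunit genes in 4 classes, with 1 point per gene and a bar at the median. Colours mark chromosomes 6 and 10, and open points are genes whose row is shared with or overlaps another gene. The classes overlap almost wholly, with medians between 0.061 and 0.23.

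The stalk of the large subunit, where translation factors dock, is formed around Mrpl10, Mrpl11 and Mrpl12. Mrpl12, which has also been described as a partner of the mitochondrial RNA polymerase, was at 71.6 FPKM in KD and 57.8 FPKM in NT, a log2 fold of 0.30. Mrpl10, the anchor of the stalk, was at 44.5 FPKM in KD and 43.3 FPKM in NT. Mrpl11, at the stalk base, was at 17.2 FPKM in KD and 16.7 FPKM in NT. Of the stalk genes Mrpl12 was thus the one with a difference over 3% in these values, and it was not called (q = 0.994 by the authors' deposited table).

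The exit of the growing chain is lined by the next group. The 6 genes Mrpl17, Mrpl22, Mrpl23, Mrpl24, Mrpl45 and Mrpl47 had folds between -0.0011 and 0.26, with a median of 0.066. Mrpl22, Mrpl23 and Mrpl47, counterparts of the bacterial tunnel and exit proteins L22, L23 and L29, were at 45.6, 47.5 and 25.2 FPKM in KD and at 42.0, 46.8 and 25.3 FPKM in NT. Mrpl17 was at 11.4 FPKM in KD and 11.3 FPKM in NT. Mrpl45, whose protein tethers the ribosome to the inner membrane, was at 45.3 FPKM in KD and 41.8 FPKM in NT. Mrpl24 was at 61.7 FPKM in KD and 51.3 FPKM in NT, and its row overlaps that of Rrnad1.

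On the small subunit, genes of the decoding region and the path of the messenger RNA spread more widely, from -0.25 to 0.36. Each is the counterpart of a bacterial protein. Besides Mrps12, Mrps9 was at 51.5 FPKM in KD and 54.5 FPKM in NT. Mrps24, the counterpart of bacterial S3 at the channel entry, was at 32.9 FPKM in KD and 25.4 FPKM in NT. Mrps11 was at 21.3 FPKM in KD and 16.6 FPKM in NT. Mrps5 was at 61.9 FPKM in KD and 55.3 FPKM in NT, and Mrps7 at 32.2 FPKM in KD and 27.6 FPKM in NT. Of these 6 genes 4 lay above 0 and 2 below.

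Mammals have 3 paralogs of bacterial S18, which occupy different places in the particle. In the grouping by ancestry only Mrps18c was counted as having a bacterial counterpart. Mrps18c, in the place of S18 itself, was at 100.1 FPKM in KD and 104 FPKM in NT, and its row overlaps one that carries Fam175a and Helq. Mrps18b, elsewhere in the small subunit, was at 96.7 FPKM in KD and 77.7 FPKM in NT, a log2 fold of 0.31, and its row overlaps that of Ppp1r10. Mrps18a, in the large subunit, was at 36.8 FPKM in KD and 35.0 FPKM in NT. None of the 3 was called.

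Of the other abundant members, Mrpl2, a core protein near the catalytic centre, was at 120 FPKM in KD and 94.8 FPKM in NT, in a row shared with the ubiquitin ligase scaffold gene Cul7. Mrpl20, an early assembling protein in bacteria, was at 105 FPKM in KD and 95.8 FPKM in NT. Mrpl18 was at 99.2 FPKM in KD and 95.3 FPKM in NT. Mrps16, the counterpart of bacterial S16, was at 75.1 FPKM in KD and 84.8 FPKM in NT, a log2 fold of -0.17. Mrpl27, the counterpart of bacterial L27 at the catalytic centre, was at 47.2 FPKM in KD and 37.8 FPKM in NT, in a row that overlaps those of Lrrc59 and Eme1. Mrpl44, which has the fold of an RNase III, was at 30.8 FPKM in KD and 34.5 FPKM in NT. Mrpl14, the counterpart of bacterial L14 at the subunit interface, was at 17.1 FPKM in KD and 19.2 FPKM in NT. Mrps28 was at 39.5 FPKM in KD and 43.8 FPKM in NT. Levels of 5 members in KD and of 3 in NT were 100 FPKM or more.

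How a gene's row was built went along with its fold. In 5 members the row carried another symbol, and 18 rows overlapped the row of another gene at 1 FPKM or more, which gave 22 members in all. These 22 had a median log2 fold of 0.23, with 19 above 0. The other 55 members had a median of 0.040, with 39 above 0. The 22 include Mrpl19, Mrpl35, Mrpl51, Mrpl53 and Mrps25 of chromosome 6, where named genes had a median of 0.26. Mrps33 and Mrps35 of that chromosome are among the 55. Row and chromosome were not separated, and no such split was made over all named genes. Of the 5 highest folds, 3 were in rows with another symbol (Mrps6, Mrps34 and Mrpl2). A part of these rows in the difference was not tested. RefSeq annotates pseudogenes of Mrpl23, Mrpl27, Mrpl48 and Mrps36, with which reads of these genes may be shared. No source used here says whether counting used the strand.

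The chromosome also went along with the fold. On chromosome 6, where the 566 named genes at 1 FPKM had a median log2 fold of 0.26 and 81.1% lay above 0, all 7 members lay above 0. Their median was 0.27. They ran from Mrps35, at 30.6 FPKM in KD and 30.5 FPKM in NT, to Mrps33, at 31.3 FPKM in KD and 24.8 FPKM in NT. Chromosome 10 had a median of -0.16 over 598 named genes, and its 2 members, Mrpl42 and Mrpl54, were both below 0. Mrpl54 was at 48.4 FPKM in KD and 54.3 FPKM in NT, and its row overlaps those of Apba3 and Tjp3. Relative to the median of its chromosome, Mrpl54 stood at 0.0012 and Mrpl42 at -0.35. On chromosome 11 all 10 members lay above 0, with a median of 0.16, whereas the 1019 named genes there had a median of 0.038. Away from chromosomes 6 and 10 the 68 remaining members had a median of 0.068, and 51 lay above 0. The number of copies of these chromosomes in the clones was not analysed here.

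**Figure D3:**
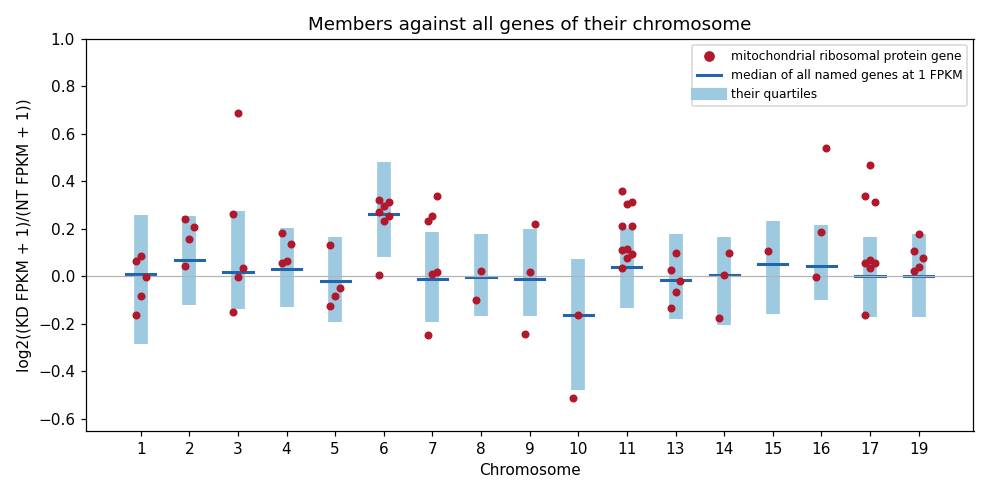
Log2 fold of each member (red points) by chromosome, over the median (blue bar) and quartiles (pale bar) of all named genes at 1 FPKM on that chromosome. The members of chromosome 6 sit around that chromosome's raised median of 0.26. On chromosome 10, with a median of -0.16, Mrpl54 lies almost on the median and Mrpl42 below it.

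Some of these genes start back to back with a neighbour, and the share among all expressed genes was not computed. In the RefSeq windows 24 members had an expressed gene on the opposite strand whose start lay within 1000 bases, head to head, which made 23 pairs in separate rows. Mrps11 and Mrpl46 form such a pair between members, with starts 42 bases apart. Both were higher in KD, Mrps11 as given above and Mrpl46 at 28.3 FPKM in KD and 23.6 FPKM in NT. Their log2 folds were 0.34 and 0.25. Mrps12 starts 147 bases from Sars2, the mitochondrial seryl-tRNA synthetase, which was at 14.9 FPKM in KD and 16.5 FPKM in NT. Both of that pair had negative folds, -0.25 for Mrps12 and -0.13 for Sars2.

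Over all pairs the directions were mixed. In 12 of the 23 pairs both genes had a fold of the same sign, and 0 neighbours were called. The neighbours' folds lay between -0.30 and 0.43 with a median of -0.024. Across the 23 pairs, which share libraries and, where the starts are close, promoter sequence, the Pearson r of member and neighbour was 0.39 and the Spearman rho 0.36. In some pairs, among them Mrps18b with Ppp1r10 and Mrpl27 with Eme1, the separate rows overlap, and reads may be shared. These pairs were kept in r, rho and the count of signs. Mrpl47 was at 25.2 FPKM in KD and 25.3 FPKM in NT, whereas its neighbour Ndufb5, a subunit of respiratory complex I, was at 55.3 FPKM in KD and 68.1 FPKM in NT. Mrpl49 was at 47.2 FPKM in KD and 44.7 FPKM in NT, beside Fau, a cytosolic ribosomal protein precursor, at 811 FPKM in KD and 910.1 FPKM in NT.

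**Figure D4:**
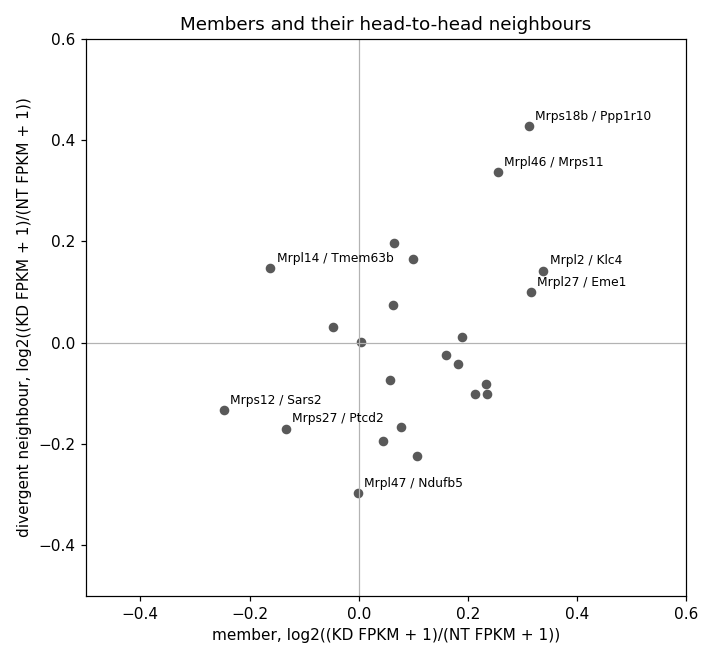
Log2 fold of KD over NT of each member (x) and of its head-to-head neighbour (y), with 1 point per pair and Mrpl46 with Mrps11 shown once. Points lie in all 4 quadrants, and 12 of 23 have the same sign on both axes.

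Other genes of mitochondrial translation gave 0 calls in each of the lists below, where 1.15% of all tested rows were called, so that a count of 0 is close to the background. The 6 subunits known by other symbols had a median log2 fold of 0.079. Among them Ptcd3, which binds messenger RNA at the small subunit, was at 86.1 FPKM in KD and 65.5 FPKM in NT and lies on chromosome 6. Chchd1 was at 84.5 FPKM in KD and 72.4 FPKM in NT. Dap3, a small-subunit protein that binds GTP, was at 23.6 FPKM in KD and 25.9 FPKM in NT.

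Factors that assemble the ribosome had a median of -0.011 over 23 genes, of which 10 lay above 0 and 13 below, and 0 were called. The most abundant, Ngrn, was at 45.0 FPKM in KD and 50.4 FPKM in NT, and Trub2, a pseudouridine synthase, at 30.7 FPKM in KD and 30.9 FPKM in NT. Fastkd2, an RNA-binding protein needed for the large subunit, had the lowest fold of the list, -0.75, at 17.5 FPKM in KD and 30.3 FPKM in NT. The highest, 1.32, was that of Rbfa, a factor of small-subunit maturation, at 19.5 FPKM in KD and 7.18 FPKM in NT. For Fastkd2 the authors' deposited table gave p = 0.0035 and q = 0.144, and for Rbfa p = 0.00305 and q = 0.136. These are the extremes of the list, and 8.88% of all rows tested had an unadjusted Cuffdiff p under 0.05. The 15 translation factors had a median of 0.062 with 0 calls. Slirp and Lrpprc, which stabilise mitochondrial messenger RNAs together, were at 151 and 47.8 FPKM in KD and at 153 and 39.2 FPKM in NT. For 22 genes of aminoacyl-tRNA synthesis the median was -0.018, again with 0 calls. Gars and Kars, which serve both compartments, were at 274 and 112 FPKM in KD and at 216 and 110.04 FPKM in NT.

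Of 11 genes of mitochondrial DNA replication and transcription 0 were called, and their median was 0.11. Polrmt, the mitochondrial RNA polymerase, was at 13.1 FPKM in KD and 23.8 FPKM in NT, a log2 fold of -0.81, for which the authors' deposited table gave q = 0.184. Tfam, which packages mitochondrial DNA and starts its transcription, was at 26.7 FPKM in KD and 38.6 FPKM in NT. Both lie on chromosome 10. Ssbp1, the single-stranded DNA-binding protein of the organelle, was at 133 FPKM in KD and 93.6 FPKM in NT and lies on chromosome 6. Fastkd2, Rbfa and Polrmt were chosen for mention after their values were seen.

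Regulators that act on nuclear genes of mitochondrial proteins gave 0 calls among 8 tested, with a median of 0.14 over the 7 at 1 FPKM. Yy1 was at 54.3 FPKM in KD and 48.3 FPKM in NT, and Gabpa at 41.0 FPKM in KD and 44.3 FPKM in NT. Nrf1 was at 24.5 FPKM in KD and 22.05 FPKM in NT. The coactivator Ppargc1a, low in these cells, was at 0.021 FPKM in KD and 0.0048 FPKM in NT and was not tested.

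The median of the cytosolic ribosome lay on the other side of 0. Its 85 protein genes and paralogs at 1 FPKM had a median log2 fold of -0.085, with 32 above 0 and 53 below, against 0.077 for the mitochondrial set. The median level was 1458 FPKM in KD and 1518 FPKM in NT. Of them 2 were called, beside 1.15% of all rows tested, and a count this small was not tested against that share. Rpl10l, a testis paralog, was at 27.2 FPKM in KD and 3.29 FPKM in NT. Rpl37a was at 771 FPKM in KD and 1369 FPKM in NT. The difference between the sets was not tested.

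**Figure D5:**
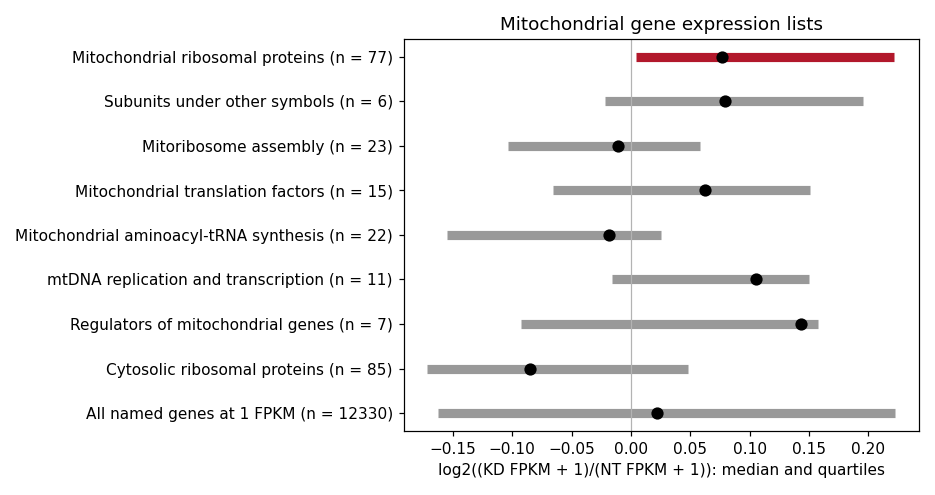
Median (black point) and quartiles (bar) of the log2 fold of KD over NT for each list, with the number of genes at 1 FPKM in either condition. The mitochondrial ribosomal protein genes (red) have a median of 0.077, and the cytosolic ribosomal protein genes one of -0.085.

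Markers of primitive endoderm, and some of feeder fibroblasts, differed far more than the members. Of 12 primitive endoderm markers 11 were called higher in KD, beside 0.963% of all rows tested. Their summed level was 471 FPKM in KD and 62.9 FPKM in NT. Of 12 feeder fibroblast markers 9 were tested and 4 called higher (Ccl2, Tnc, Fbln2 and Bgn), beside the same 0.963%. The 12 summed to 98.6 FPKM in KD and 25.9 FPKM in NT, and Lum was listed at 0 in both. This list was split. Of the 8 at 1 FPKM, 7 lay above 0 and 1 below. Thy1, at 7.06 FPKM in KD and 5.08 FPKM in NT, was not called. Neither was Pdgfrb, at 2.57 FPKM in KD and 2.73 FPKM in NT. The 6 ES cell markers summed to 2699 FPKM in KD and 2592 FPKM in NT, with 0 called. In bulk RNA, more cells of a type and more RNA per cell cannot be told apart. What part such cells have in the small upward lean of the members was not tested.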

How the data were processed

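Total RNA of 4 libraries, 3 KD clones and 1 NT control, was sequenced. The submitters' processing notes name TopHat, Cufflinks, Cuffdiff and the mm9 build. No source used here gives versions, annotation or scaling. Per gene and condition the deposited values are 1 FPKM each, named treated (taken as KD) and control (taken as NT). The deposited p-value and q-value are those of the authors' Cuffdiff test, per the file headers. No source used here gives the number of fragments behind a value.

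For each symbol the row of highest mean FPKM was used, among rows tested or marked as not tested. Folds were recomputed with a pseudocount of 1 FPKM, which understates changes of low genes, with Python 3.11.15 and pandas 2.3.3. No test of expression was run, since each condition has 1 value. List summaries used genes of at least 1 FPKM in either condition. RefSeq tables of GRCm38.p6 gave promoters, neighbours and synonyms only, since coordinates of the rows are mm9.

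Members and lists were chosen with earlier results of these data known. Named members were those called, the 8 highest and 8 lowest folds at 5 FPKM or more, the 6 most abundant, and the stalk, exit, decoding and S18 groups. In the other lists the called genes and the 2 most abundant were named, except in the cell type marker lists, where few genes were named. Other genes were named after their values were seen. Alternatives were 2 other pseudocounts, 2 other minimums, row filters, centring and leaving out chromosomes.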

Additional observations from a re-analysis of the deposited data

How the results depend on the processing

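No member was called under a q of at most 0.1, at an unadjusted p under 0.05 or in rows with 1 symbol. The median log2 fold of the members stayed above 0 under each of the 11 alternatives, between 0.040 and 0.16, as did the large-subunit median (0.040 to 0.15) and the small-subunit median (0.048 to 0.21). Counts of members past 0.5 were small and moved easily. Upwards, 2 became 1 with a pseudocount of 5 FPKM, with rows of 1 symbol only, with centring on each chromosome, and without rows that share or overlap. Downwards, 1 became 0 with a pseudocount of 5 FPKM, with centring on cytosolic ribosomal protein genes, with centring on each chromosome, and without chromosomes 6, 10 and Y. Members below 0 numbered 11, in place of 19, with centring on cytosolic ribosomal protein genes, where 3 members passed 0.5 upwards, but 24 with centring on all named genes and 24 with centring on each chromosome. Medians ranged from 0.040 to 0.15 with and from 0.042 to 0.17 without a bacterial counterpart. Centring on each chromosome closed the gap between the subunits and turned round the order by ancestry. Centring by chromosome and leaving out shared or overlapping rows were chosen after seeing the data. Leaving out a clone could not be done, because values per clone were not analysed here. No paired analysis was possible because the table gives 1 pooled value per condition. The test behind each deposited p rests on 1 control library, so a small difference may lie below what it can call.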
